A study of Picea abies with 19 samples.

Results

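The 200 spruce probes described here were those whose signal varied least between root samples of Norway spruce (Picea abies), out of 32144 spruce probes on the array. They were chosen from the scanner intensities by their spread. A probe first had to exceed its local background by more than 2 background standard deviations on all 19 arrays, which 2613 probes did, and the 200 brightest of these were left out. The remaining 2413 probes are called the candidates. Each net intensity (spot median minus background median) was put on the log2 scale and the array's median over the 2613 probes was subtracted. The result is called the centred level. The 200 candidates with the lowest standard deviation (SD) of the centred level over 18 arrays made up the set, called the stable probes. The array that was left out was slow 18-month replicate 2, from genotype 76. Values on the 18 arrays therefore describe the choice, and nothing about the set is read from tests that use them.

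Each array was hybridised with amplified RNA of 1 sample of root ends from rooted cuttings. Cuttings sampled 18 months after adventitious root initiation gave 7 arrays of fast genotypes and 8 of slow genotypes. The fast arrays came from genotypes 15 (1 array), 18, 20 and 35, and the slow arrays from genotypes 52, 61, 70 and 76 (2 arrays each unless given). Cuttings sampled at 5 months gave 2 fast arrays, 1 each from genotypes 20 and 35, and 2 slow arrays from genotype 52. All plants were peat-grown nursery material with mineral fertiliser, and no group received a treatment. The labels name the genotypes Fast or Slow without saying what was fast or slow, and each genotype is a clone, so that a class is 4 clones. Each sample pooled several root ends. P-values for genotype and age measure the spread between such samples, and those for class the spread between genotype means. Root ends hold several cell types, and a lower share of a cell type and less of a transcript per cell cannot be told apart in them. The files pair no probe with a gene name or a sequence, so the labelled tissue could not be checked against marker genes and the probes are given by ID.

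Transcripts that hold a steady level across individuals, ages and genotypes serve as internal references. In quantitative PCR, the level of a studied transcript is divided by that of such a reference to remove differences in the amount of RNA. Genes of basic cell functions are often used for this, although any of them may vary in a given tissue, and array surveys are one way to look for candidates. In fine roots, which grow, take up water and ions and host fungal partners, the mix of tissues in a sample can itself vary.

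The arrays differed in quality, and the sources differed in their labels. Between 7436 and 18498 spruce probes exceeded the background by 2 SD on the 18 arrays, and 4944 did on slow 18-month replicate 2. The columns of 1 scanner file, slow 18-month replicate 1 of genotype 76, name another channel than the red one in which the labelled dye is read. In the authors' deposited table of log2 values, 11 of the 19 scanner files matched 1 column each, at correlations across 16012 probes of 0.859 to 0.945, and each of the 11 columns was named for a different genotype than the file. For the other 8 files the highest correlation with any column was 0.544. Scan dates, as given in the names of the scanner files, were grouped here into 3 periods. A new period began at a change of calendar month, or at a gap of over 3 days within the first month. The third holds only the 2 arrays of genotype 76, so that effects of the period and of genotype 76 cannot be told apart. Scanner files were used under their own labels. Since the choice of the probes pooled 18 arrays, it used no label beyond the array left out, whereas comparisons of genotype, class and age below rest on the labels.

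The 200 stable probes had SDs of 0.163 to 0.388 on the log2 scale, with a median of 0.351. The candidates had a median SD of 0.629 and reached 2.25. From the lowest to the highest of 18 arrays the median stable probe spanned 1.26 log2 units, or 2.39-fold, against 2.33 units, or 5.01-fold, for the median candidate. Even the set chosen for steadiness thus varied by more than a doubling between the extreme arrays for its median member. The limit of the set fell in a dense part of the distribution. The last 3 probes inside it were Spruce_09004, Spruce_19545 and Spruce_15337, with SDs of 0.3876, 0.3881 and 0.3882. The first 3 outside were Spruce_29888, Spruce_06953 and Spruce_28629, with SDs of 0.3884, 0.3885 and 0.3887. Probes on either side of the limit were therefore alike in spread.

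**Figure D1:**
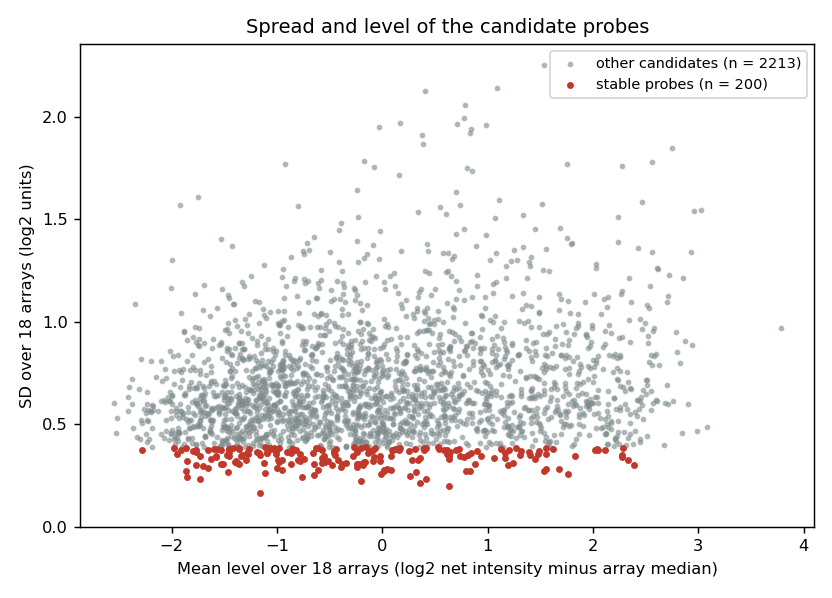
SD over 18 arrays (vertical axis, log2 units) against mean centred level (horizontal axis, log2 net intensity minus array median) for the 200 stable probes and the other 2213 candidates, 1 point per probe. The stable probes lie below an SD of 0.3884 by construction and cover mean levels from -2.28 to 2.38.

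The steadiest probe was Spruce_30580, with an SD of 0.163. In the 7 fast 18-month arrays its centred level was -1.48 at the lowest, -1.31 at the median and -1.09 at the highest. In the 7 slow 18-month arrays used by the rule these values were -1.22, -1.10 and -0.82. The fast 5-month arrays gave -0.96 and -1.05 and the slow 5-month arrays -1.28 and -1.05. All groups overlapped at least 1 other group, and the whole range was 0.66 log2 units, or 1.58-fold. In net intensity the fast 18-month arrays ran from 953 to 1560, around a median of 1206.

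Spruce_11192 came next, with an SD of 0.199 at a mean centred level of 0.63. It lay between 0.38 and 0.63 in the fast 18-month arrays, with a median of 0.54, and between 0.55 and 1.11 in the 7 slow ones, with a median of 0.65. The 5-month arrays gave 0.64 and 0.67 for the fast and 0.52 and 0.48 for the slow genotypes. Of the slow 18-month arrays 3 lay above all arrays of the other groups, at 0.90, 1.05 and 1.11, and the remaining 4 overlapped the other groups.

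Spruce_23621 had an SD of 0.215. Its centred level was 0.21 at the lowest, 0.38 at the median and 0.61 at the highest in the fast 18-month arrays, and -0.01, 0.43 and 0.59 in the slow ones. The fast 5-month arrays gave -0.01 and 0.43, and the slow 5-month arrays -0.07 and 0.64. The 2 slow 5-month samples, both from genotype 52, were thus its lowest and highest values among the 18 arrays.

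The other members of the steadiest 10 were Spruce_09743, Spruce_19625, Spruce_23402, Spruce_04034, Spruce_05304, Spruce_17291 and Spruce_03634, with SDs from 0.225 to 0.255. Among these, Spruce_19625 differed between classes at the median. Its centred level was 0.05 at the lowest, 0.22 at the median and 0.34 at the highest in the fast 18-month arrays, and 0.03, 0.68 and 0.74 in the slow ones. The median slow array lay above all fast arrays, but the lowest slow array lay below them. Spruce_17291 had the widest slow 18-month range of the 10 relative to the fast one, -0.27 to 0.80 against 0.16 to 0.53, with medians of 0.27 and 0.19. The 10 probes covered mean centred levels from -1.85 (Spruce_04034) to 0.63, lay in 10 different blocks of the slide and spanned 1.58-fold to 2.1-fold each.

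**Figure D2:**
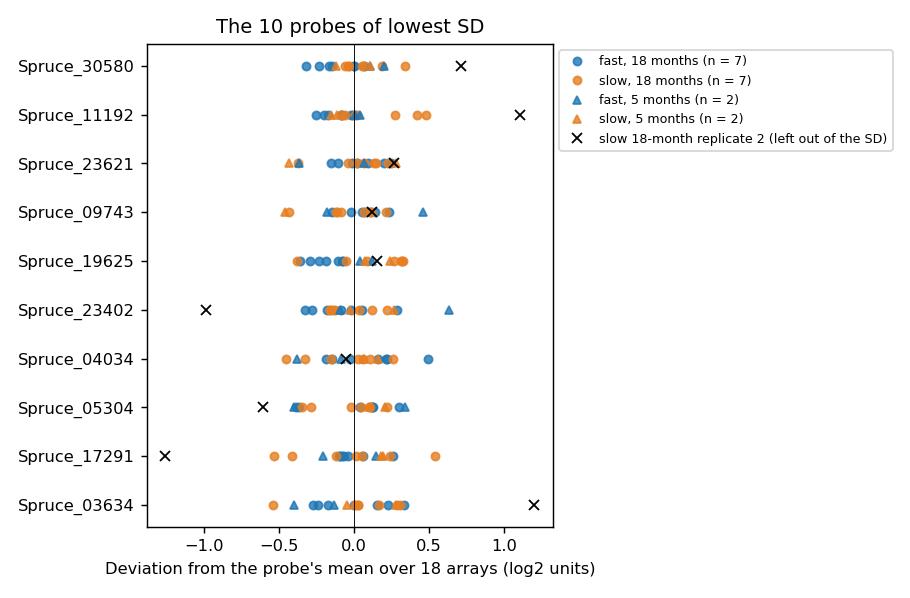
Deviation of each of the 10 steadiest probes from its own mean over 18 arrays (horizontal axis, log2 units), 1 point per array, marked by group and with the array left out shown apart. Ranges over the 18 arrays are 0.66 to 1.07 log2 units, and on the array left out 6 of the 10 probes lie outside their own range.

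The stable probes were not confined to bright spots. Their mean centred level had a median of -0.36, against -0.19 for the candidates, and their median net intensity was 2420, with a range of 608 to 14930. When the candidates were ranked by level and divided into 10 parts of 241 or 242 probes, the parts held between 10 and 26 stable probes, and the brightest part held the 10. No stable probe reached the scanner's highest value on any array. The highest mean level was that of Spruce_22941 at 2.38 (SD 0.302), followed by Spruce_29317 at 2.33 and Spruce_07101 at 2.29. The lowest was that of Spruce_14915 at -2.28 (SD 0.373), followed by Spruce_09217 at -1.98 and Spruce_09275 at -1.95.

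The choice over all 18 arrays also limits how far groups can differ. From genotype means at 18 months, the slow minus fast difference ran from -0.56 (Spruce_04103) to 0.48 (Spruce_20464), and 199 of 200 lay within 0.5 log2 units, against 80.6% of candidates. The 18-month minus 5-month difference, over genotypes 20, 35 and 52, ran from -0.65 (Spruce_27863) to 0.71 (Spruce_10814), and 189 lay within 0.5, against 65.4% of candidates. Between 2 arrays of the same genotype and age, over 7 pairs, the median SD was 0.314 for the stable probes and 0.530 for the candidates. Between the means of 6 genotypes it was 0.248 and 0.467. Both spreads enter the SD that chose the set.

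The stable probes did not move as 1 block on the 18 arrays. Across their 19900 pairs the mean correlation over arrays was 0.045, against 0.004 for pairs of candidates. The middle 90% of pairs lay between -0.44 and 0.52, against -0.56 and 0.58 for the candidates. The first principal component took 18.9% of their variance, against 28.5% for the candidates. These values share the arrays and their centring, and the same arrays chose the set by its low SD. On single arrays the median deviation of the set ran from -0.13 (fast 18-month replicate 7) to 0.16 (fast 18-month replicate 4).

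Array by array, the median absolute deviation of the stable probes from their own means was 0.188 to 0.319 log2 units over the 18 arrays, against 0.278 to 0.586 for the candidates. Slow 18-month replicate 2, which had no part in the SD, stood apart. It belongs to the third scan period together with the other array of genotype 76, slow 18-month replicate 1. These arrays were scanned on different days, and no further array was scanned on either day. Effects of the scan day and of the array therefore cannot be told apart. Slow 18-month replicate 1 helped to choose the stable probes, which deviated on it by a median of 0.202. A list of 200 chosen without it deviated on it by 0.303, against 0.366 for the candidates. On slow 18-month replicate 2 the stable probes deviated by a median of 0.988 log2 units, or 1.98-fold, and the candidates by 1.06, or 2.08-fold. Of the 200 stable probes 55 (27.5%) lay within 0.5 of their mean, against 23.9% of candidates, and 96 (48%) lay more than 1 away, against 52.6%. The set that was steady on 18 arrays was thus about as far from its means on this array as the candidates were.

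**Figure D3:**
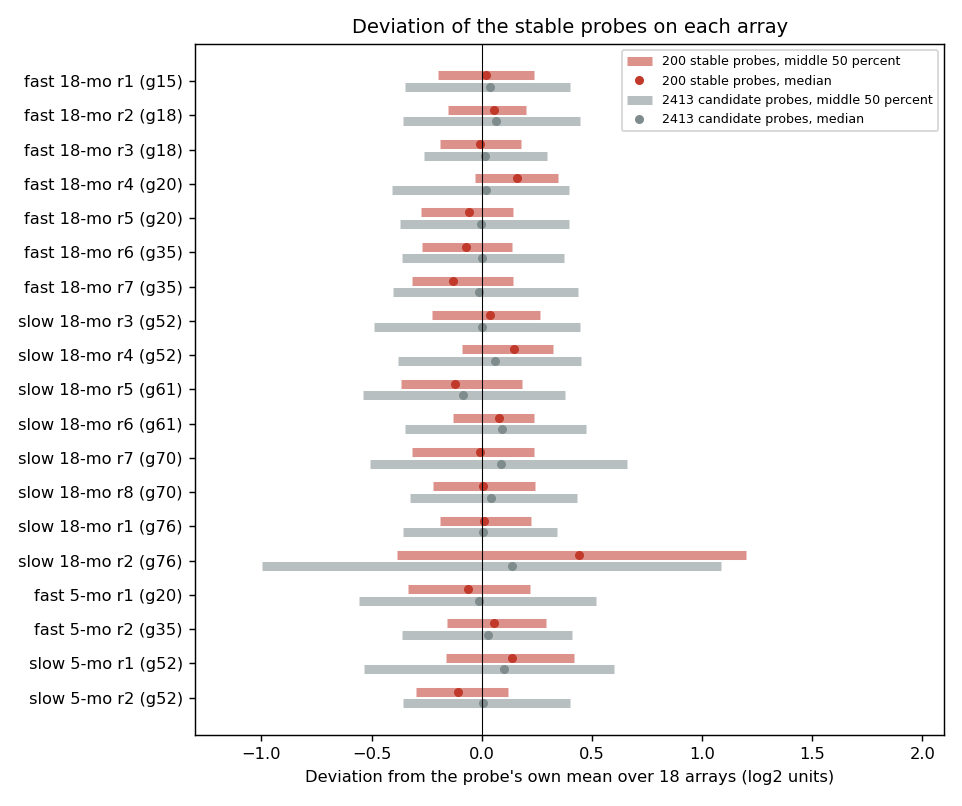
Deviation of the stable probes from their own mean over 18 arrays (horizontal axis, log2 units) on each of the 19 arrays, beside the candidates. Points are medians over probes and bars the middle 50% of probes. The median absolute deviation of the stable probes is 0.188 to 0.319 on the 18 arrays that chose them and 0.988 on slow 18-month replicate 2.

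The deviations on this array went in both directions. Of the stable probes 129 were above and 71 below their means, with a median of 0.44, and the candidates had a median of 0.14. Spruce_06628 lay between -1.71 and -0.36 on the 18 arrays and was at 1.71 on this one, 6.98-fold above its mean. Spruce_18690 lay between 0.42 and 1.86 and was at 3.68, 5.85-fold above its mean. Spruce_13341 lay between 1.43 and 2.64 and was at -0.61, 6.30-fold below its mean. Spruce_00759 lay between -0.79 and 0.37 and was at -2.71, 5.62-fold below its mean. These 4 probes were named for lying among the furthest up or down on this array. In each of them the value on this array lay outside the range of all others, which follows in part from that choice. In the whole set, 64 probes (32.0%) stayed inside their own range over the 18 arrays, against 55.9% of candidates, whose ranges are wider because the rule took the probes of low spread.

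The steadiest probes were no exception. Spruce_30580 was at -0.45 on this array, 0.71 above its mean, and Spruce_11192 was at 1.74, 1.11 above its mean. Spruce_17291 was 1.26 below its mean and Spruce_03634 was 1.2 above. Spruce_04034, Spruce_09743, Spruce_19625 and Spruce_23621 stayed within 0.5 of theirs. Across the stable probes, the level on this array and the mean level over the others correlated at 0.64, against 0.51 for the candidates. Probes of 1 array share its hybridisation and are not independent. On the other array of genotype 76, slow 18-month replicate 1, 173 stable probes lay within 0.5 of their means, and across probes the deviations on the genotype's 2 arrays correlated at 0.06 for the stable probes and 0.29 for the candidates. The choice itself made the stable probes' deviations on slow 18-month replicate 1 small.

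Signal strength on this array was set beside the result. The stable probes' median signal there was 14.0 background SDs, within the range of 7.25 to 82.7 on the other arrays. Among the 102 stable probes that exceeded 5 background SDs on all arrays, the median absolute deviation on this array was 1.02, and 26 (25.5%) lay within 0.5. Among the 1077 candidates that did so it was 0.985, and 25.3% lay within 0.5. A list of 200 remade among probes above 5 background SDs on all arrays deviated by 0.787 there, against 0.932 for its candidates. The part of signal strength in the deviation was not tested further.

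Whether steadiness on some arrays carried over to another was read by remaking the list. Each of the 18 arrays was left out in turn, 200 probes were chosen on the other 17 in the same way, and their deviation was read on the array left out. The list deviated less than the candidates on 18 of 18 arrays. Its median absolute deviation ran from 0.219 (fast 18-month replicate 2) to 0.481 (slow 5-month replicate 1), against 0.294 to 0.620 for the candidates, and the ratio of list to candidates was 0.509 to 0.827. Between 53.5% and 89.0% of the list lay within 0.5. On slow 18-month replicate 2 the ratio was 0.935. The lists shared 164 to 188 probes with the 200, and 135 of the 200 were in all 18 lists. The steadiest 10 were among these 135.

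**Figure D4:**
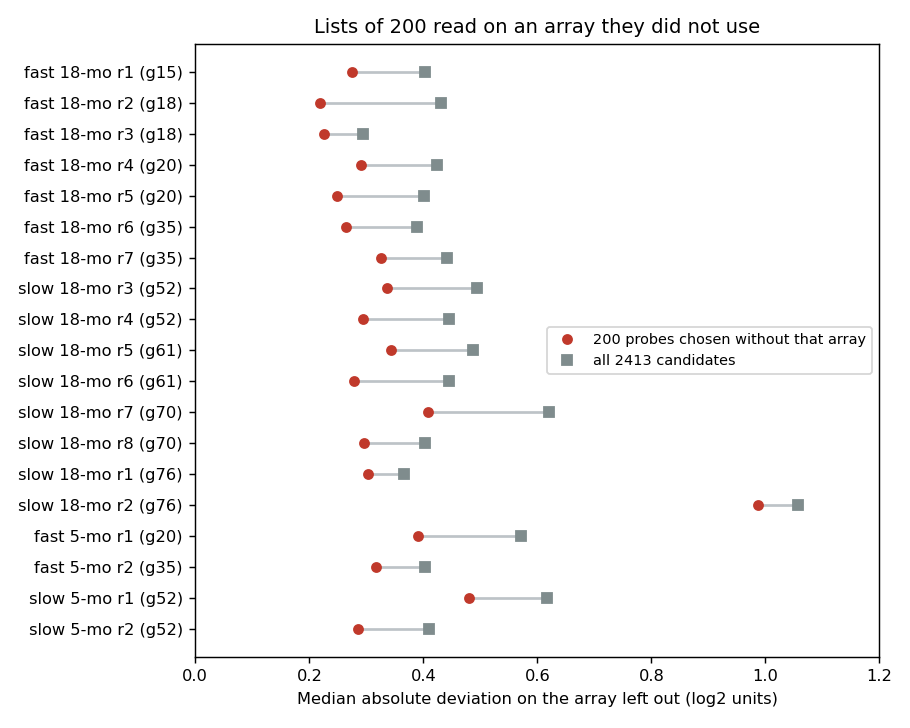
Median absolute deviation (horizontal axis, log2 units) of a list of 200 probes on an array that the list did not use, and of the candidates on the same array, for each of 19 arrays. The list lies below the candidates on each of the 18 arrays of the rule, at 0.219 to 0.481, and at 0.988 on slow 18-month replicate 2.

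Lists made on 1 age or 1 class were read on the other. The 200 probes steadiest over the 14 18-month arrays had a median SD of 0.460 over the 4 5-month arrays, against 0.638 for the candidates. Their means at the 2 ages differed by less than 0.5 in 192 probes (96.0%), against 81.2% of candidates. The 200 steadiest on the 9 fast arrays had a median SD of 0.432 on the 9 slow ones, against 0.643, and those steadiest on the slow arrays had 0.407 on the fast ones, against 0.565. With each genotype left out in turn, the share of the list within 0.5 on that genotype ran from 73.0% (genotype 76, on 1 array) to 93.0% (genotype 18). The candidates' share ran from 58.6% to 73.9%, and the list's share was higher for 8 of 8 genotypes.

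The authors' deposited table gave a further reading, added after the data were seen, since 8 of its 19 columns matched no scanner file. Which hybridisations these columns come from is not stated, and their highest correlation with any scanner file was 0.715, for the column named slow 18-month replicate 2. After each column was centred in the same way, the stable probes had a median SD of 0.536 over these 8 columns, and the candidates had 0.735. Of the stable probes 159 (79.5%) lay below the candidates' median SD, and 48 (24%) were among the 200 candidates of lowest SD. The stable probes make up 8.29% of the candidates. Of the steadiest 10, Spruce_23621 had an SD of 0.370 there and ranked 89 among the 2413 candidates, and Spruce_03634 had 0.399 and ranked 122. Spruce_09743 (0.784) and Spruce_17291 (0.821) lay above the candidates' median. The table column that matched the scan of slow 18-month replicate 2 gave a median absolute deviation of 0.850 for the stable probes and 0.908 for the candidates. The column of that array's own name gave 0.578 and 0.642. In the 17 columns other than these it was 0.266 to 0.562 for the stable probes and 0.361 to 0.759 for the candidates.

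Genotype, class (Fast or Slow in the titles) and age were tested over the whole array, on 16012 probes that exceeded the background on at least 4 arrays, with all 200 stable probes among them. The spread that chose the probes was that over these same arrays, so nothing is read from the members' counts. By limma's moderated F-test on the 15 18-month arrays, 0.575% of all probes differed between genotypes at an adjusted P under 0.05, and 0 of the 200 stable probes did. At an unadjusted P under 0.05 it was 15.3% of all probes and again 0 stable probes. The count over all probes, 92, moved with the arrays used: it was 20 without fast 18-month replicate 2, 484 without slow 18-month replicate 2, 432 without genotype 76 and with scan period as a term, and 2702 in the authors' deposited table, with 0 stable probes each time. The table was tested as deposited, without centring, and its column medians run from 1.61 to 5.29. It was also read under its own column names, which conflict with the scanner files, so its count is not on a like footing. Spruce_08329 had the smallest P of the stable probes. Its genotype means ran from 11.29 in genotype 70 to 12.95 in genotype 76, as normalised log2 intensity. The 2 arrays of genotype 76 had centred levels of 0.87 and, on slow 18-month replicate 2, 1.68 for this probe. Without slow 18-month replicate 1, genotype 76 is slow 18-month replicate 2 alone. The limma test then called some stable probes, though a smaller share of them than of all probes. Since the rule took probes of low spread, nothing is read from this either.

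For class, tested on 4 fast against 4 slow genotype means, limma called 0% of all probes after adjustment and 2.46% before, and 0 stable probes in either case. Spruce_04103 had the smallest unadjusted P of the set. Its centred level at 18 months was 0.57 to 1.32 on the 7 fast arrays and -0.10 to 0.78 on the 8 slow arrays, so that the classes overlapped. In normalised log2 intensity it was 12.54 ± 0.19 (SD, n = 4 genotypes) in the fast class and 11.94 ± 0.33 (SD, n = 4) in the slow class. The difference was -0.60, with a 95% interval of -1.27 to 0.06. The fast mean of Spruce_20464 was 11.08 ± 0.15 and its slow mean 11.64 ± 0.40 (SD, n = 4 each), a difference of 0.57 with an interval of -0.11 to 1.25. Its slow mean includes slow 18-month replicate 2, whose centred level was 1.07, where the other slow 18-month arrays had centred levels of at most 0.26.

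For age, with genotype as a fixed term over 19 arrays, limma called 0% of all probes after adjustment and 8.77% before, and 0 stable probes in either case. The 18-month minus 5-month difference of Spruce_21538 was 0.61, with an interval of -0.0040 to 1.22. That of Spruce_27863 was -0.61, with an interval of -1.27 to 0.04.

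The median half-width of these 95% intervals over the stable probes was 0.70 log2 units for class and 0.66 for age. A P-value above the threshold does not show that a level was the same. For 0 stable probes did the interval stay less than 0.5 from 0 at both ends in either comparison. The same count was 0 over all 16012 tested probes, so it is no trait of the stable probes. Without slow 18-month replicate 2 the median half-width over the stable probes was 0.60 for class and 0.56 for age.

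Position on the slide was not used by the rule. The spots lie in 48 numbered blocks of 27 rows by 27 columns, whose layout on the slide is not stated. Blocks 1 to 12 held 12 stable probes among 364 candidates (3.30%), and blocks 13 to 24 held 54 among 557 (9.69%). Blocks 25 to 36 held 84 among 684 (12.3%), and blocks 37 to 48 held 50 among 808 (6.19%). In the first 6 and the last 6 blocks together, a division made after the counts were seen, 15 of 549 candidates (2.73%) were stable probes, against 185 of 1864 (9.92%) in the 36 blocks between. The most in any block was 14, in block 25, and 8 blocks held none.

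The median SD of the candidates ran in the opposite order to these shares, with 0.689, 0.612, 0.587 and 0.639 in the 4 bands of 12 blocks. The rule links both, since it took the candidates of lowest SD. The median deviation of the candidates in blocks 1 to 12 from their own means ran from -0.41 to 0.50 over the 18 arrays. That of blocks 25 to 36 ran from -0.18 to 0.20. When each array was centred block by block, 119 of the 200 stayed in the list, and the shares of candidates listed became 7.14%, 11.1%, 10.5% and 4.95%. The part of slide position in the choice of single probes was not tested further.

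**Figure D5:**
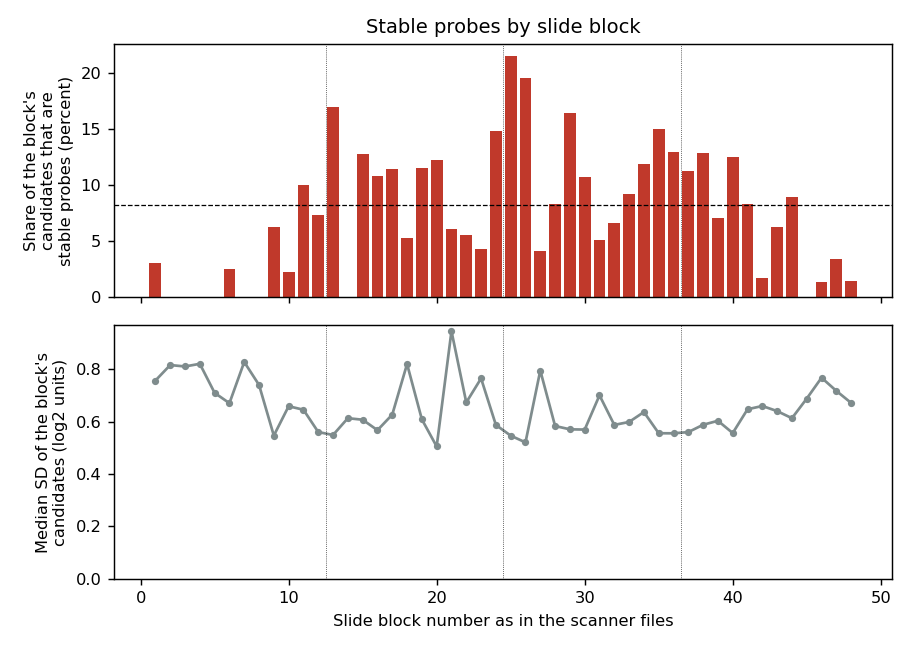
Top, share of the candidates in each of the 48 slide blocks (horizontal axis, block number) that are stable probes (bars, percent), with the share over all blocks, 8.29%, as a dashed line; bottom, median SD of each block's candidates (log2 units). Dotted lines divide the 4 bands. Blocks 1 to 12 lie lowest as a band, at 3.30%, and blocks 25 to 36 highest, at 12.3%.

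Spots of the stable probes were slightly wider and more even than those of the candidates. The median spot diameter was 11.7 against 11.2 in the image software's units, and the median ratio of pixel SD to spot median was 0.650 against 0.721. Aspect ratio was 1.09 in both, and the median local background was 317.8 and 314 intensity units. These differences are given as descriptions, since spots share slides and blocks.

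Membership depended on how steadiness was measured. Under 6 other scalings the list kept 119 to 174 of the 200 probes, and 75 probes were in all 6 lists. Of these, 73 were also in all 18 lists that left out 1 array, and 34 of the 73 were also in the list made from the authors' deposited table, which shared 79 probes with the 200. Of the steadiest 10, Spruce_23621, Spruce_19625, Spruce_23402, Spruce_04034, Spruce_05304 and Spruce_03634 were in the table's list, while Spruce_30580, Spruce_11192, Spruce_09743 and Spruce_17291 were not.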

How the data were processed

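Scanner files hold spot intensity, per the file headers, as deposited: median, pixel SD and local background of 34992 spots, with no normalisation, and spot shape scores per the file headers. No source used here names the image software. The authors' deposited table holds log2 values, floored at 0, made by steps that are not stated; its column medians run from 1.61 to 5.29, and what it was centred on is unknown. Of its columns, 0 lacked a sample.

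The members and lists were chosen with earlier results of these data known. Members were chosen in Python 3.11.15 (pandas 2.3.3) as the report states. For the tests, limma 3.58.1 under R 4.3.3 was run after normexp background correction (offset 50), log2 and quantile normalisation over 19 arrays, with two-sided tests and Benjamini-Hochberg adjustment over 16012 probes. Scanner files and table columns were compared after centring each probe, with a match above a correlation of 0.8. The number of arrays limits the precision. The list and test steps were also run on simulated data. For the tests these were independent normal values with an SD per probe and known shifts added. They held no array or slide effects, so they do not show how the tests behave on these arrays. Alternatives covered scaling, background, detection, brightness, arrays, measure of spread and the table.

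Named probes were the 10 of lowest SD, 3 on either side of the limit, 3 highest and 3 lowest in level, 3 furthest up and 3 down on the array left out, and 2 of smallest P per test. Not all are printed. Spruce_10814 was named in addition, after its value was seen.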

Additional observations from a re-analysis of the deposited data

Results flagged for a closer look

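Of 72 groups of 4 to 10 arrays examined, 13 held a highest or lowest array far from the rest by Dixon's criterion, and chance alone gives about 1 in 20 in groups not chosen by their values. Of the 13, 12 were slow 18-month replicate 2 among the 8 slow 18-month arrays. That number follows in part from the choice of probes, since 6 of the 12 were named for lying furthest from their means on that array, and stable probes have low spread on the others by rule. There the stable probes' median absolute deviation was 0.988, and the next highest of the group was 0.287. Their median deviation was 0.44, with 0.14 next.

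Among single probes, given as centred level on that array and on the nearest other slow 18-month array, Spruce_06628 was at 1.71 against -0.73 and Spruce_18690 at 3.68 against 1.49. Spruce_28404 was at 1.12 against -0.80, Spruce_11192 at 1.74 against 1.11 and Spruce_20464 at 1.07 against 0.26. Spruce_06953, which lay just outside the set, was at 2.31 against 0.53. Spruce_13341 was at -0.61 against 1.51, Spruce_00759 at -2.71 against -0.79, Spruce_06072 at -1.75 against 0.47 and Spruce_23402 at -2.72 against -1.89. On another array, slow 18-month replicate 4, Spruce_23621 was at -0.012 against 0.32. The causes were not tested.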

How the results depend on the processing

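Of the 200 stable probes, 102 were in the list when 5 background SDs were asked for on all arrays (all 102 that were still eligible), 94 with the median absolute deviation as the measure, 125 over all 19 arrays, 113 over the fast and 112 over the slow arrays alone, and 90 by the SD within genotype and age. Centring by slide block, an alternative chosen after seeing the data, kept 119. The authors' table kept 79; without the column that matches the array left out it kept 84 and without both columns 85, both chosen after seeing the data. Leaving out 1 array kept 164 to 188. On slow 18-month replicate 2 the median absolute deviation was 0.878 for the list centred on the 75th percentile, 0.701 without background subtraction, 0.899 after normexp and quantile normalisation, 0.787 at 5 background SDs and 0.879 with the brightest probes kept, against 1.02, 0.848, 0.928, 0.932 and 1.02 for the candidates. The cause was not tested. After quantile normalisation of net intensities the list, at 0.944, lay above the candidates, at 0.915.

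No stable probe was called for genotype, class or age under the alternatives run (limma; unadjusted counts of 0 to 42, 0 to 3 and 0 to 36, where the 42 go with 48.7% of all probes and the 36, from the authors' table, with 25.2%), with 1 exception. Without slow 18-month replicate 1 the genotype test called 23 stable probes and 5360 of all 16012, and genotype 76 then rests on slow 18-month replicate 2 alone, assumed to vary like the others. Leaving out 1 array gave 0 to 23 calls for genotype, 0 to 0 for class and 0 to 0 for age. In these tests the authors' table was taken as deposited, without centring its columns, and under its own column names. Ages were compared within genotype, by a fixed term. By replicate number, no paired analysis was possible because these numbers were given in accession order. The number of arrays and their signal over background limit the precision, and slow 18-month replicate 2 had the fewest probes above background.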
